A study of Homo sapiens with 26 samples.

Results

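Panc10.05 is an established human pancreatic ductal adenocarcinoma cell line. The comparison described here sets Panc10.05 cells with induced P1-a2, an isoform of the nuclear receptor HNF4α made from promoter P1 of the HNF4A gene, against Panc10.05 control cells labelled NC, which carry GFP by their titles. The members were chosen by label alone: 2 P1-a2 libraries and 2 NC libraries, 4 of the 26 libraries of the series. Cells of all 4 libraries received doxycycline, the drug that switches the constructs on, at 25 ng/mL, so that drug exposure is shared. The series also holds Panc10.05 cells with induced P2-a8 (2 libraries, 12.5 ng/mL doxycycline), the line BxPC3 with P1-a2 or an empty vector control (2 libraries each, 500 ng/mL doxycycline in both), and the line ASPC1 with CRISPR interference guides against both isoforms of HNF4α (sgDual2 and sgDual3, 2 libraries each) or the control sgNC (2 libraries). The labels do not say whether the induced lines are clones or pools, how long doxycycline was given, or whether the replicates are separate cultures, so that p-values measure the spread between these libraries, which may be technical.

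HNF4α is a transcription factor of liver, intestine, kidney and pancreatic islets. It binds DNA as a dimer at direct repeats and switches on genes of lipoprotein secretion, bile acid and drug handling, blood clotting and the intestinal brush border. In pancreatic cancer it is known as a factor of the classical, better differentiated subtype, which is set against a basal-like subtype that expresses squamous and mesenchymal genes.

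Among the genes that rose were several known products of liver and gut, and interferon-stimulated genes fell. The 250 bases before a RefSeq transcript start (GRCh38.p14) are printed for 3 of the former and 2 of the latter. These windows are printed because they hold the motifs whose shares are given at the end. They are thus no sample of the genes that moved. Of the 12 largest rises 10 had a window, and only the 3 printed held an HNF4 motif. Of the 12 largest falls 9 had a window and 4 held the interferon-response motif, among them the 2 printed. Capitals mark CAAAGTCCA, CAAAGTTCA or CAAAGGTCA, forms of the HNF4 recognition sequence, in the first 3 windows, and GAAA followed after any 2 bases by GAAA, the core of the interferon-stimulated response element, in the last 2. Each motif was searched on both strands, and the printed strand is that of the gene, so that a match on the other strand, as in CIDEB and SELENOP, reads as its reverse complement.
CIDEB (chr14:24307978-24308227, minus strand): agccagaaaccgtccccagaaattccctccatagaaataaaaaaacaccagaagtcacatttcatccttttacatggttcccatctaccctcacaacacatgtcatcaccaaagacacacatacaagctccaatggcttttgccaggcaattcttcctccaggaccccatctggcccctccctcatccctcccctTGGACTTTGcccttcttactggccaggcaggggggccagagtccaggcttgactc
PDZK1 (chr1:145707369-145707618, minus strand): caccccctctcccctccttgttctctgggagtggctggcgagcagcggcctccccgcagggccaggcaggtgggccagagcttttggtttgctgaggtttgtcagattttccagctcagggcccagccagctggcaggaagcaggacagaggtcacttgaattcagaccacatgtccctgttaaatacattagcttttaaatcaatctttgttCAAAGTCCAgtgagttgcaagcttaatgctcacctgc
SELENOP (chr5:42811893-42812142, minus strand): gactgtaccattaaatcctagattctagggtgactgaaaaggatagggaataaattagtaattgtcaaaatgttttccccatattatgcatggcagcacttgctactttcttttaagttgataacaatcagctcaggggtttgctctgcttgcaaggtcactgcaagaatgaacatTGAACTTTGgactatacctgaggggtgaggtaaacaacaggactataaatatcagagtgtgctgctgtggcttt
IFI44L (chr1:78620198-78620447, plus strand): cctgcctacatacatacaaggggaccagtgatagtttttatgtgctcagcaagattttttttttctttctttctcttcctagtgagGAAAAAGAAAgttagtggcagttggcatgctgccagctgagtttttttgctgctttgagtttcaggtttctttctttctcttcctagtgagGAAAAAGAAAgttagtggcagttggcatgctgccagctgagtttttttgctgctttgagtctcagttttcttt
IFI6 (chr1:27672193-27672442, minus strand): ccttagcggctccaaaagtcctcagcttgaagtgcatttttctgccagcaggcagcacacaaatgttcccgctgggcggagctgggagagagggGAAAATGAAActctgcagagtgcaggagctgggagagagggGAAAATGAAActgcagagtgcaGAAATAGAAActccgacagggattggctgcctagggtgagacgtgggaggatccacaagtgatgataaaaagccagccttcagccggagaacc
The motif starts 55 bases before the transcript start in CIDEB, 37 in PDZK1 and 74 in SELENOP. In IFI44L the motif occurs at 164 and 73 bases before the start, and in IFI6 at 156, 115 and 93. A match is a description of the letters, not evidence of binding.

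The 4 libraries held between 34618745 and 46288201 counts. Levels are given as CPM, the count of a gene scaled to library size, and differences as log2 fold changes of P1-a2 against NC from edgeR's quasi-likelihood test, with Benjamini-Hochberg adjustment over all 17247 genes tested. A gene with an adjusted p under 0.05 is called higher or lower. By this rule 10699 genes (62%) were called, 5434 higher (31.5%) and 5265 lower (30.5%), so that any list of genes has to be read against a background in which most genes moved. With a log2 fold change of at least 1 as well, 3385 genes (19.6%) were called, 1807 higher (10.5%) and 1578 lower (9.15%). At a log2 fold change of at least 5 stood 137 higher and 33 lower genes, but the fitted values of most rest on a group at or under 3 counts per library, and only 21 higher and 12 lower had neither group there. The median over all genes was 0.02. Ribosomal protein genes took 6.27% and 6.34% of counts in P1-a2 and 4.97% and 5.44% in NC. All 8 epithelial markers on the list used were expressed, of which 4 were called higher and 2 lower. Of 8 leukocyte markers 3 were tested, with a summed level of 25.1 and 27.5 CPM in P1-a2 and 42.8 and 36.8 CPM in NC. CD68 was called higher (log2 fold change 0.45), CSF1R lower (log2 fold change -0.94), and PTPRC, CD3D and MS4A1 had no count in any of the 4 libraries. Of 8 fibroblast markers 2 were tested, with a summed level of 4.67 and 5.52 CPM in P1-a2 and 5.09 and 5.48 CPM in NC. PDGFRB was called higher (log2 fold change 1.28, edgeR adjusted p = 0.0471), a call lost when any 1 Panc10.05 library was left out, with an adjusted p of 0.305 at the most, and DCN and LUM had no count. The part of these markers in the results was not tested. None of the 8 acinar markers was tested. Of 7 neuroendocrine markers 2 were tested and both called lower, PAX6 (log2 fold change -1.84) and SYP (log2 fold change -0.60). The SYP call was lost with DESeq2. Of 6 endothelial markers 1 was tested, and it was not called. In bulk RNA a smaller share of cells expressing a gene and less RNA per cell cannot be told apart.

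**Figure D1:**
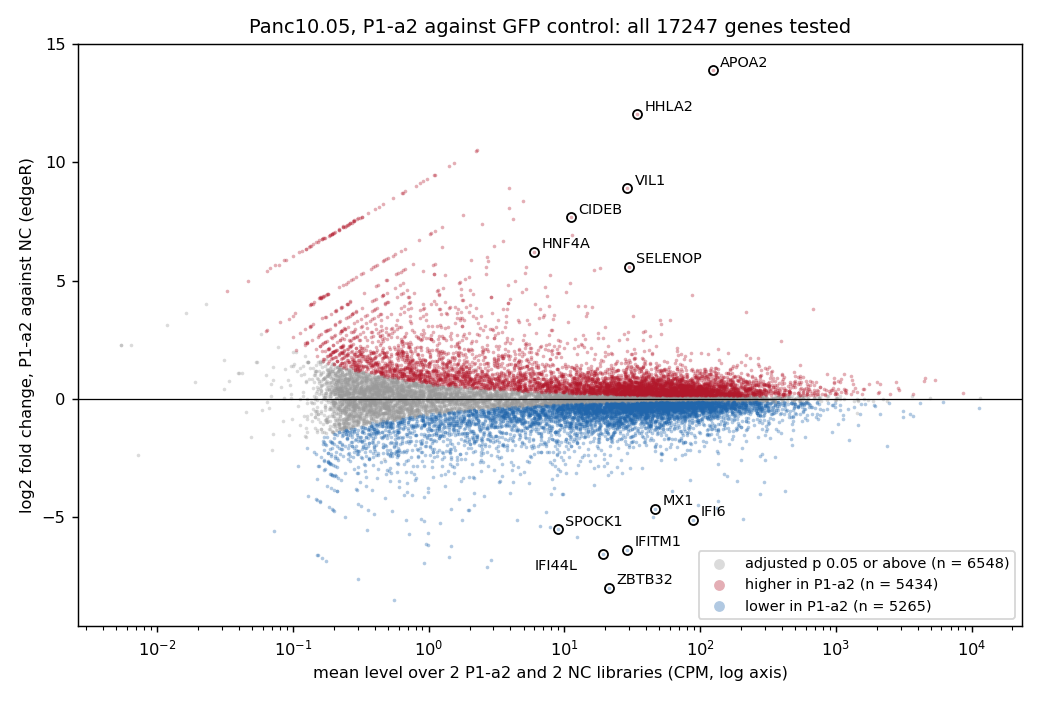
Mean level over the 4 libraries (CPM, log axis) against log2 fold change of P1-a2 against NC for each gene tested, coloured by call. The 5434 higher and 5265 lower genes lie on both sides of 0, and the circled genes are named in the text. The diagonal lines of points at the upper left are genes with no or almost no count in NC, whose fitted fold change depends on a prior count.

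HNF4A (GRCh38, chromosome 20, 44355700 to 44434596, plus strand) checks the labels. It stood at 10.7 and 13 CPM in P1-a2 and at 0.240 and 0.0580 CPM in NC, which are 10 and 2 counts. The log2 fold change was 6.21 (SE 0.23, edgeR adjusted p = 2.42e-24), 7.59 without NC replicate 1 and 5.61 without NC replicate 2. HNF4A reached 37.6 CPM in both P2-a8 libraries of the same line, at the lower drug dose, so that P1-a2 cells held less HNF4A RNA than P2-a8 cells (log2 difference -1.66, edgeR adjusted p = 5.02e-17). The counts do not separate the construct from the native gene. HNF4G, which encodes the related receptor HNF4γ, stood at 5.62 and 6.54 CPM in P1-a2 and 8.12 and 7.27 CPM in NC (log2 fold change -0.34, edgeR adjusted p = 0.0185). That call was lost when P1-a2 replicate 1 or NC replicate 1 was left out, and with DESeq2, where its adjusted p reached 0.185 at the most. HNF4A-AS1, an antisense transcript of the locus, had at most 2 counts in these 4 libraries and was not tested.

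The 12 largest rises, among called genes of at least 5 CPM whose groups did not overlap, which held for 79.8% of all genes, included HNF4A and several genes of fat and mineral handling. APOA2, an apolipoprotein of high-density lipoprotein, stood at 260.0 and 234 CPM in P1-a2, against 1 count in 1 NC library and none in the other. Its rise was at least 3110-fold against a floor of 3 counts per library (edgeR adjusted p = 0.000787). HHLA2, a B7 family ligand that regulates T cells, stood at 67.2 and 69.9 CPM against 1 count and 0, a rise of at least 863-fold (edgeR adjusted p = 1.19e-36). VIL1, the actin-bundling villin of microvilli, stood at 55.5 and 60.9 CPM against 0.168 and 0.0580 CPM (log2 fold change 8.91, SE 0.18, or 9.89 without NC replicate 1). CIDEB, which acts in lipid droplet fusion and lipoprotein lipidation, stood at 20.4 and 24 CPM against 0.120 and 0.0869 CPM (log2 fold change 7.69, SE 0.23). In each of these genes both P1-a2 libraries were high and both NC libraries near 0.

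The other rises of the 12 were smaller in fold. SELENOP, the selenium transport protein of plasma, stood at 59.5 and 58.4 CPM against 1.37 and 1.07 CPM (log2 fold change 5.57). MOGAT3, an enzyme of triglyceride synthesis, stood at 33.4 and 37.8 CPM against 0.769 and 0.753 CPM (log2 fold change 5.54). PDZK1, a scaffold of brush border transporters, stood at 9.45 and 11 CPM against 0.192 and 0.232 CPM (log2 fold change 5.58). FCER1G, the common gamma chain of Fc receptors, which lies beside APOA2 on chromosome 1, stood at 9.81 and 10.3 CPM against 0.240 and 0.261 CPM (log2 fold change 5.31). The long non-coding genes KIAA1614-AS1 (6.93), MIR4280HG (5.45) and LINC01291 (5.22, all log2 fold changes) completed the 12. Without NC replicate 1 the value of KIAA1614-AS1 was 7.97 and that of LINC01291 6.20. KIAA1614-AS1, VIL1, CIDEB and SELENOP share exon bases with a gene on the opposite strand, and the strand setting of the counting is not given in the sources used here, so that their reads may include those of the overlapping gene.

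**Figure D2:**
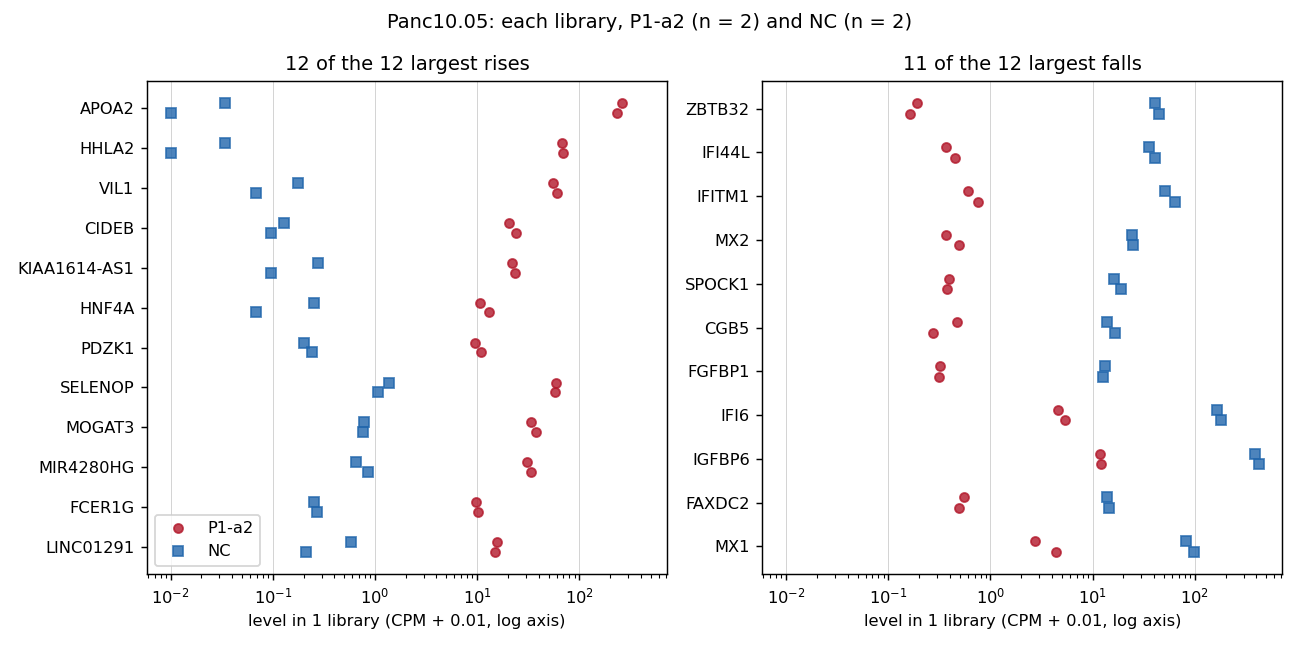
Level of the 12 largest rises and 11 of the 12 largest falls in each of the 2 P1-a2 and 2 NC libraries (CPM + 0.01, log axis), 1 point per library. The P1-a2 and NC libraries stand apart in every gene plotted, which was a condition for entry. The 2 libraries of a group lie close together beside the gap between groups.

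A further set of genes went from the floor of detection to a clear level. In 49 genes both NC libraries held at most 3 counts and the P1-a2 mean was at least 1 CPM, and in 16 genes the reverse held. The nuclear receptor NR1I3, also named CAR, a sensor of foreign compounds, stood at 9.01 and 10.6 CPM in P1-a2 (at least 123-fold). The uptake transporter SLCO2B1 stood at 7.81 and 8.81 CPM (at least 104-fold), and the membrane mucin MUC17 at 8.68 and 6.98 CPM (at least 98.5-fold). Genes of this set outside the rule for naming genes, chosen after their values were seen, include the intestinal alkaline phosphatase ALPI (at least 13.8-fold), the peptidases ANPEP (at least 17-fold) and MME (at least 22.3-fold), and the RNA-editing enzyme APOBEC1 (at least 21.7-fold). Among the reverse set, also chosen after their values were seen, were KIF26A (at least 75.4-fold lower) and the sodium channel gene SCN3A (at least 39.1-fold lower).

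The brush border list, genes of the microvilli that line gut and kidney tubule, rose more than the background. As with every list here, its members were chosen with earlier results of these data known. Setting a list beside the background is thus a description and not a test. Of 35 genes listed, 25 were tested and 10 were at or under 3 counts in every library. Of the 25, 18 were called higher, 17 of them with a log2 fold change of at least 1, and 2 were called lower, against 31.5% and 30.5% of all genes. Their median was 3.08, or 1.64 with the 7 genes that had 1 group at the floor set to their lower bound, against 0.02 over all genes. Such a gene could pass the count filter only through a group with more counts, which favours a call. Beside VIL1 and PDZK1, EPS8L3 stood at 6.83 and 7.17 CPM against 0.0961 and 0.0290 CPM (log2 fold change 6.67, or 7.76 without NC replicate 1). The microvillar motor MYO1A stood at 2.16 and 2.78 CPM against 0.0961 and 0.319 CPM (log2 fold change 3.63, or 2.94 without NC replicate 1 and 4.65 without NC replicate 2). The actin bundler ESPN stood at 5.08 and 8.96 CPM against 0.408 and 0.637 CPM (log2 fold change 3.78), and the protocadherin CDHR2 at 1.03 and 1.30 CPM against 0.264 and 0.319 CPM (log2 fold change 2.01). CDHR5, its microvillar partner, had at most 1 count. The 2 members called lower, named after their values were seen, were PLS1 (log2 fold change -0.47) and the disaccharidase MGAM (log2 fold change -1.98). Without P1-a2 replicate 1 only 1 member was called lower.

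**Figure D3:**
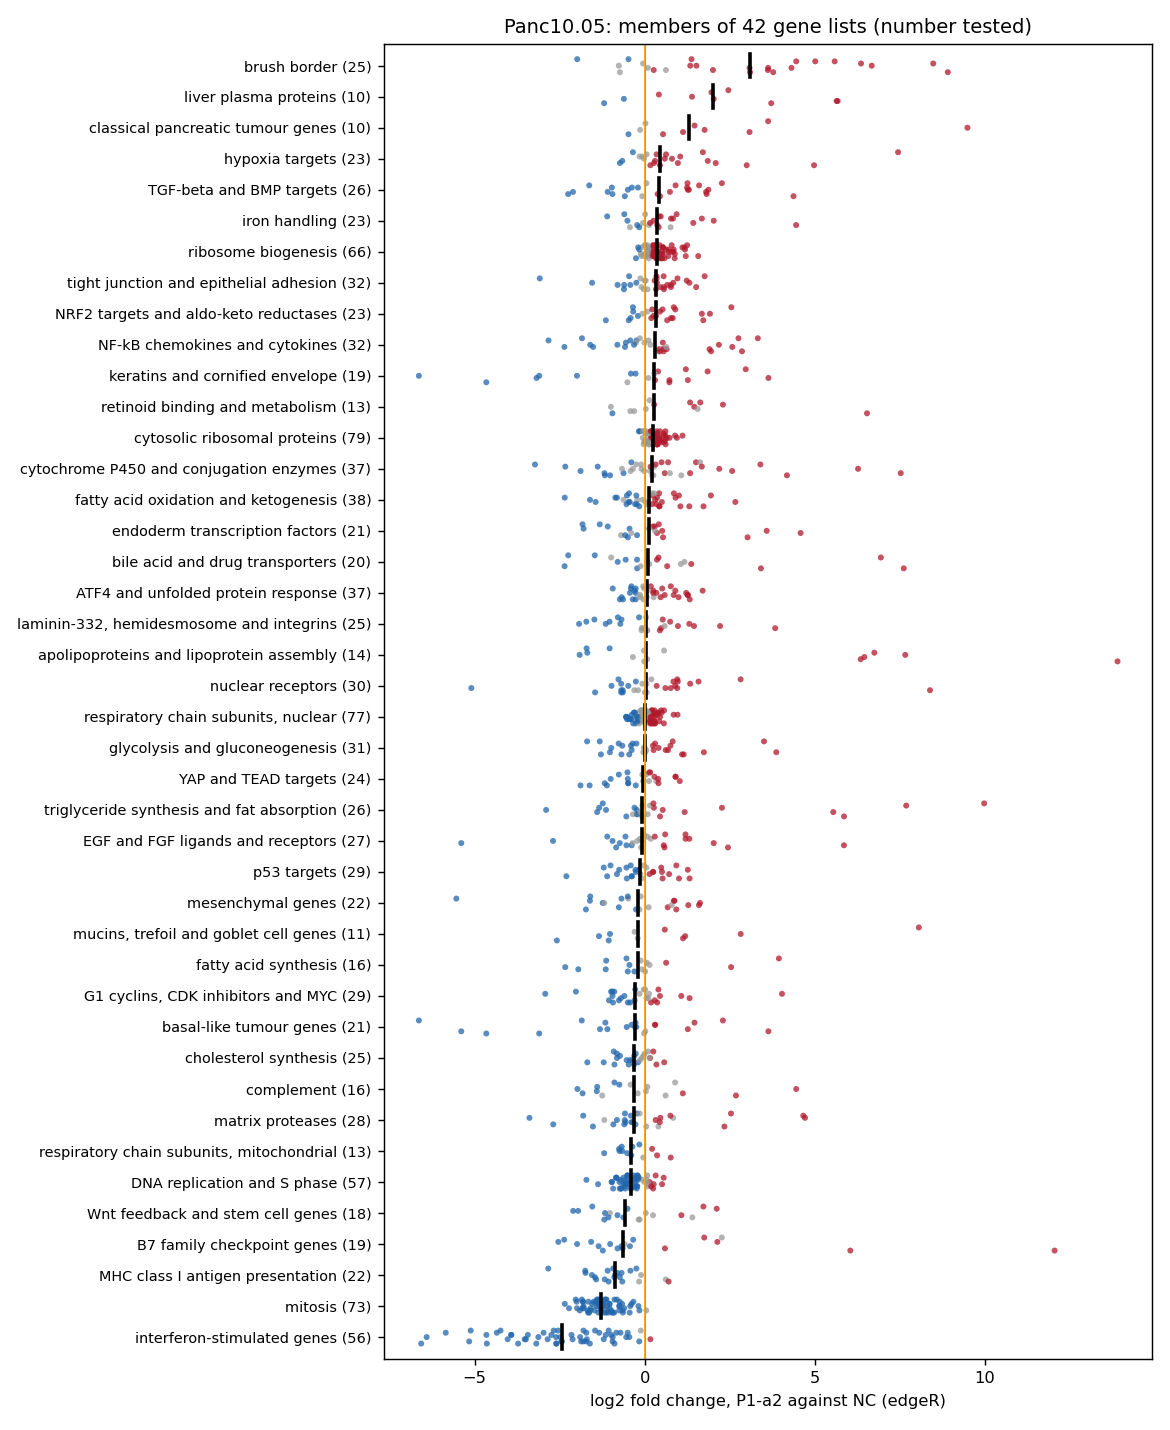
Log2 fold change of each tested member of 42 gene lists in P1-a2 against NC, 1 point per gene, red if called higher, blue if called lower and grey otherwise. Black bars are list medians and the orange line is the median of all genes (0.02). Brush border genes (median 3.08, of which 7 of 25 rest on a group at the floor) lie to the right and interferon-stimulated genes (median -2.44) to the left.

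Genes of lipoproteins and fat absorption did not move as a block, beside 31.5% of all genes called higher and 30.5% lower. Of 14 apolipoprotein and lipoprotein assembly genes tested, 5 were called higher and 4 lower, or 2 lower without P1-a2 replicate 2. Beside APOA2, APOB, the structural protein of chylomicrons and very low-density lipoprotein, stood at only 0.282 and 0.217 CPM in P1-a2 against 0 in NC (at least 3.14-fold). APOA1, the main protein of high-density lipoprotein, stood at 3.93 and 7.96 CPM against 0 and 0.145 CPM (log2 fold change 6.46, edgeR adjusted p = 0.0112), and lost its call without either NC library, with an adjusted p of 0.0815 at the most. Its log2 fold change was 5.34 without NC replicate 1, 10.98 without NC replicate 2 and 5.84 without P1-a2 replicate 2. MTTP, the transfer protein that loads lipid onto APOB, had at most 6 counts and was not tested. The sorting receptor SORT1 stood at 16.3 and 20.7 CPM against 63.9 and 57.3 CPM (log2 fold change -1.71).

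Of 26 genes of triglyceride synthesis and fat absorption tested, 10 were called higher (38.5%) and 9 lower (34.6%). The shares over all genes were 31.5% and 30.5%. CIDEC, a relative of CIDEB at lipid droplets, stood at 2.98 and 3.22 CPM against 0 in both NC libraries (at least 39-fold). DGAT2, which makes triglyceride, stood at 12.4 and 12.6 CPM against 14 and 15.1 CPM and was not called (edgeR adjusted p = 0.0582). The hormone-sensitive lipase LIPE stood at 0.976 and 1.15 CPM against 7.23 and 8.78 CPM (log2 fold change -2.90). The fatty acid binding proteins FABP1 and FABP2 had no count.

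Most liver plasma proteins stayed silent. Of 45 listed, 31 were at or under 3 counts in every library, among them ALB (at most 2 counts) and TTR and RBP4 (no count). Of the 10 tested, 8 were called higher (5 without P1-a2 replicate 2, NC replicate 1 or NC replicate 2) and 2 lower, with a median of 2.0, or 1.65 with 3 genes at their lower bound. AGT, angiotensinogen, stood at 2.23 and 2.0 CPM in P1-a2 (at least 26.6-fold), and HPX, hemopexin, at 1.98 and 2.13 CPM against 0.528 and 0.522 CPM (log2 fold change 1.96). SERPINA1, alpha-1-antitrypsin, went the other way, at 22.1 and 18.6 CPM against 45.5 and 47.3 CPM (log2 fold change -1.19, SE 0.08). Among 16 complement genes tested, 3 were called higher (5 without NC replicate 2) and 6 lower. The shares over all genes, for both lists, were 31.5% called higher and 30.5% lower. In 3 of the 10 liver and 2 of the 16 complement genes 1 group was at the floor. Such a gene could pass the count filter only through a group with more counts, which favours a call. C3 stood at 19.6 and 28.3 CPM against 4.23 and 3.19 CPM (log2 fold change 2.68), while CFB (log2 fold change -1.98) and CLU, clusterin (log2 fold change -1.82), fell.

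Transcription factors of endoderm changed in both directions, 9 higher (42.9%) and 8 lower (38.1%) of 21 tested, against 31.5% and 30.5% of all genes. ONECUT2 stood at 39.3 and 32.2 CPM against 4.44 and 4.32 CPM (log2 fold change 3.02) and CREB3L3, a factor of liver and gut lipid metabolism, at 2.44 and 2.65 CPM against 0.264 and 0.145 CPM (log2 fold change 3.58). GATA6, a factor of the classical subtype, rose by less, from 6.94 and 7.10 CPM to 10.8 and 9.61 CPM (log2 fold change 0.54, SE 0.12). CDX2 had no count. FOXQ1 fell to 4.19 and 5.0 CPM from 16.7 and 16 CPM (log2 fold change -1.83). Of 30 nuclear receptors tested, 12 were called higher and 11 lower. NR1D1, the clock repressor REV-ERBα, stood at 51.7 and 51.8 CPM against 7.30 and 7.36 CPM (log2 fold change 2.82), and RARG, a retinoic acid receptor, at 27.7 and 24.8 CPM against 70.2 and 73.7 CPM (log2 fold change -1.46).

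Drug-handling genes were called in both directions at near the background, 14 higher and 9 lower of 37 P450 and conjugation enzymes tested, and 7 higher and 7 lower of 20 transporters tested. The carboxylesterase CES2 rose from 35.7 and 37.1 CPM to 108 and 125 CPM (log2 fold change 1.68), and CYP1A1 stood at 2.75 and 3.96 CPM against 0.312 and 0.0290 CPM (log2 fold change 4.18, or 6.71 without NC replicate 1 and 3.42 without NC replicate 2). The efflux pump ABCG2 stood at 2.95 and 3.26 CPM against 0.312 and 0.261 CPM (log2 fold change 3.42). The cholesterol exporter ABCA1 fell to 15.2 and 18.8 CPM from 92.7 and 81.4 CPM (log2 fold change -2.35). CYP3A4 had at most 2 counts, and UGT2B7 and SULT1E1 at most 1.

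Of 30 classical tumour genes listed, 16 were at or under 3 counts and 10 were tested, of which 7 were called higher and 1 lower, or 2 lower without NC replicate 2 (median 1.30). MUC13 rose from 83.1 and 79.6 CPM to 174 and 182 CPM (log2 fold change 1.13), CTSE, cathepsin E, stood at 5.39 and 4.28 CPM against 1.51 and 2.0 CPM (log2 fold change 1.47), and CEACAM6 at 1.77 and 1.43 CPM against 0.696 and 0.203 CPM (log2 fold change 1.76, or 2.94 without NC replicate 1 and 1.19 without NC replicate 2). Of 21 basal-like genes tested, 6 were called higher and 13 lower (median -0.28). The shares over all genes, for both lists, were 31.5% called higher and 30.5% lower. In 2 of the 10 classical and 2 of the 21 basal-like genes 1 group was at the floor. Such a gene could pass the count filter only through a group with more counts, which favours a call. KRT17, a basal keratin, fell to 0.899 and 1.17 CPM from 9.05 and 8.90 CPM (log2 fold change -3.10), and FGFBP1, which releases FGF from the matrix, to 0.308 and 0.304 CPM from 13.2 and 12.7 CPM (log2 fold change -5.39). S100A2 stood at 17.1 and 18.8 CPM against 17.3 and 18.2 CPM and was not called (edgeR adjusted p = 0.867), and TNS4, another member, rose (log2 fold change 1.47). By a log2 fold change of at least 1, 4 basal-like members were called higher and 8 lower, and the largest log2 fold change of the list was 3.64.

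Of 22 mesenchymal genes tested, 7 were called higher (31.8%) and 9 lower (40.9%), against 31.5% and 30.5% of all genes. VIM, vimentin, stood at 1.44 and 1.20 CPM against 3.51 and 5.24 CPM (log2 fold change -1.73), and the proteoglycan SPOCK1 at 0.385 and 0.370 CPM against 16.2 and 19.1 CPM (log2 fold change -5.53). A pair of regulators of the mesenchymal state went the other way. SNAI2 rose from 26.4 and 27.8 CPM to 87.2 and 76.5 CPM (log2 fold change 1.6) and ZEB1 from 9.87 and 10.2 CPM to 16.4 and 15.7 CPM (log2 fold change 0.68). The simple epithelial keratins KRT8 (3194 and 3767 CPM against 2096 and 2109 CPM) and KRT18 (2329 and 2713 CPM against 1524 and 1518 CPM) rose, each with a log2 fold change of 0.73. CDH1, E-cadherin, fell from 161 and 145 CPM to 96.1 and 105 CPM (log2 fold change -0.61). Among adhesion genes CEACAM1 fell to 4.37 and 4.89 CPM from 39.7 and 39 CPM (log2 fold change -3.08), while 18 of 32 tight junction and adhesion genes were called higher and 8 lower.

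Interferon-stimulated genes, antiviral effectors induced by interferon signalling, fell almost without exception. Of 56 tested, 54 were called lower, 44 of them with a log2 fold change of -1 or less, and 1 was called higher, against 30.5% and 31.5% of all genes. Their median was -2.44, and their summed level was 2417 and 2529 CPM in P1-a2 against 9172 and 9786 CPM in NC. The 2 exceptions, named after their values were seen, were SP100, called higher (log2 fold change 0.17), though no member was called higher when P1-a2 replicate 1, P1-a2 replicate 2 or NC replicate 1 was left out, and ADAR, not called (log2 fold change -0.11). IFI44L fell to 0.359 and 0.435 CPM from 35.4 and 41.1 CPM (log2 fold change -6.57, SE 0.16), IFITM1 to 0.591 and 0.739 CPM from 50.8 and 63.7 CPM (log2 fold change -6.41), and IFI6 to 4.6 and 5.33 CPM from 166 and 179 CPM (log2 fold change -5.11). The GTPases MX1 and MX2, which block viral replication, fell from 82.4 and 98.0 CPM to 2.75 and 4.33 CPM (MX1, log2 fold change -4.65) and from 24 and 25.1 CPM to 0.359 and 0.478 CPM (MX2, log2 fold change -5.85). The signalling factor IRF9 fell from 16.4 and 15.6 CPM to 3.36 and 2.54 CPM (log2 fold change -2.45). IFITM1 has close paralogs and MX1 overlaps another gene's exons on the opposite strand, so that their counts are less certain.

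The genes that load peptide onto MHC class I, many of which respond to interferon, fell with them. Of 22 tested, 18 were called lower and 1 higher, or 2 higher without P1-a2 replicate 2 (median -0.88). PSMB9, an immunoproteasome subunit, fell to 4.21 and 5.35 CPM from 32.8 and 35.8 CPM (log2 fold change -2.83), B2M, the light chain, to 491 and 533 CPM from 1355 and 1393 CPM (log2 fold change -1.43), and TAP1, the peptide transporter, to 40.7 and 45.1 CPM from 119 and 117 CPM (log2 fold change -1.46). NLRC5, the transactivator of these genes, fell from 121 and 103 CPM to 39.5 and 37 CPM (log2 fold change -1.55). In the B7 family 5 of 19 tested were called higher, HHLA2 among them, and 12 lower. PDCD1LG2 fell to 5.29 and 6.15 CPM from 33.4 and 33.3 CPM (log2 fold change -2.54) and CD274, also named PD-L1, to 90.2 and 90.4 CPM from 161 and 153 CPM (log2 fold change -0.80). NF-κB chemokines and cytokines split, 13 higher (40.6%) and 11 lower (34.4%) of 32 tested, against 31.5% and 30.5% of all genes. IL24 (6.65 and 5.26 CPM against 0.696 and 0.464 CPM, log2 fold change 3.33) and TNFSF15 (82.6 and 97.5 CPM against 14.9 and 11.6 CPM, log2 fold change 2.76) rose, and TNFSF10, also named TRAIL, fell (log2 fold change -2.83, or -3.45 without P1-a2 replicate 2).

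The remaining large falls belong to no single list. ZBTB32, a transcriptional repressor of lymphocytes, fell to 0.180 and 0.152 CPM from 41 and 44.6 CPM (log2 fold change -7.99). IGFBP6, which binds insulin-like growth factor 2, fell to 11.7 and 12 CPM from 386 and 423 CPM (log2 fold change -5.09). CGB5, a chorionic gonadotropin beta gene with near-identical neighbours that could share its reads, and FAXDC2, whose exons overlap another gene on the opposite strand, had log2 fold changes of -5.42 and -4.79.

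Genes of mitosis fell as a body, beside 31.5% of all genes called higher and 30.5% lower. With a log2 fold change of -1 or less 9.15% of all genes were called lower. Of 73 tested, 72 were called lower, 52 of them with a log2 fold change of -1 or less, and none higher (median -1.27), and their summed level was 5168 and 5084 CPM in P1-a2 against 11180 and 11570 CPM in NC. The exception, named after its value was seen, was CENPN (log2 fold change 0.05). CCNB1, cyclin B1, fell from 470.4 and 521 CPM to 154 and 156 CPM (log2 fold change -1.68, SE 0.06), and MYBL2, a factor that drives late cell cycle genes, from 86.1 and 86.3 CPM to 15.8 and 18 CPM (log2 fold change -2.35). The spindle motor KIF20A fell from 160.0 and 164 CPM to 31.3 and 38 CPM (log2 fold change -2.22), and the proliferation marker MKI67 from 762 and 709 CPM to 386 and 387 CPM (log2 fold change -0.93). Replication genes moved less: of 57 tested, 44 were called lower and 7 higher (median -0.40). PCNA fell from 168 and 174 CPM to 118 and 111 CPM (log2 fold change -0.58), while CDC6, a licensing factor, rose from 51.1 and 50.7 CPM to 60.7 and 61.6 CPM (log2 fold change 0.26).

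The regulators of G1 changed in several ways. The CDK inhibitor CDKN1A, also named p21, rose from 99.1 and 97.7 CPM to 234 and 257 CPM (log2 fold change 1.32, SE 0.06), whereas CDKN2C fell from 62.6 and 69.6 CPM to 8.86 and 8.59 CPM (log2 fold change -2.92). MYC stood at 299 and 295 CPM against 239 and 245 CPM (log2 fold change 0.30). Of 29 p53 targets tested, 11 were called higher (37.9%) and 14 lower (48.3%), against 31.5% and 30.5% of all genes. GDF15 rose (log2 fold change 1.27). PMAIP1, which encodes the cell death protein NOXA, fell from 214 and 234 CPM to 45.6 and 45.3 CPM (log2 fold change -2.30).

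Ribosome genes rose by small amounts, beside 31.5% of all genes called higher and 30.5% lower. Of 79 cytosolic ribosomal proteins, 56 were called higher and 2 lower (median 0.24), and of 66 ribosome biogenesis genes, 48 were called higher and 3 lower (median 0.36). The summed level of the ribosomal proteins was 63330 and 64510 CPM in P1-a2 and 49920 and 55000 CPM in NC. The size of the shift depended on the NC library kept. Without NC replicate 1 the log2 fold change was 0.17 in RPS6 and 0.22 in RPL3, and without NC replicate 2 it was 0.48 and 0.33. No ribosomal protein gene was called lower without P1-a2 replicate 1, P1-a2 replicate 2 or NC replicate 2, and the lower biogenesis genes numbered 0, 1 and 1 without them. UTP4, a subunit of the processing complex for small ribosomal subunit RNA, rose from 104 and 96.1 CPM to 302 and 293 CPM (log2 fold change 1.57), and RRP12 from 105 and 96.1 CPM to 231 and 233 CPM (log2 fold change 1.21). RPS7 rose from 298 and 324 CPM to 645 and 700.3 CPM (log2 fold change 1.11). The nucleolar methyltransferase FBL stood at 230.2 and 224 CPM against 221 and 237 CPM and was not called (edgeR adjusted p = 0.859). Of the 77 nuclear-encoded respiratory chain subunits 30 were called higher and 19 lower, but 19 higher and 27 lower without NC replicate 1. Of the 13 mitochondrially encoded ones 9 were called lower and 3 higher. MT-ND1 stood apart at 5825 and 5444 CPM against 3267 and 3362 CPM (log2 fold change 0.77), while MT-CO3 stood at 2459 and 2212 CPM against 3628 and 4241 CPM (log2 fold change -0.75).

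Lipid synthesis fell in part. Of 25 cholesterol synthesis genes 15 were called lower and 4 higher (median -0.30), with INSIG1, a sterol sensor partner, at 30.2 and 29.7 CPM against 68.6 and 69.3 CPM (log2 fold change -1.20). SREBF1, the regulator of fatty acid synthesis, fell from 131 and 129 CPM to 23.3 and 28.2 CPM (log2 fold change -2.33), and SCD, the stearoyl desaturase, from 762 and 758 CPM to 165 and 229 CPM (log2 fold change -1.95, edgeR adjusted p = 0.00909). The SCD call was lost without either NC library, with an adjusted p of 0.0540 at the most. MLXIPL, the glucose-sensing factor ChREBP, rose instead, from 0.961 and 0.927 CPM to 12.9 and 16.3 CPM (log2 fold change 3.95). In fatty acid oxidation, where 17 of 38 tested were called higher and 14 lower, CPT1A, the carnitine transferase that admits fatty acids to mitochondria, rose from 16.1 and 14.3 CPM to 48.6 and 52.5 CPM (log2 fold change 1.73), and PPARGC1A, a coactivator of mitochondrial genes, from 0.456 and 0.522 CPM to 3.21 and 3.0 CPM (log2 fold change 2.67). In glycolysis 13 of 31 were called higher and 13 lower (41.9% each, against 31.5% and 30.5% of all genes). The hexokinase HKDC1 stood at 30.4 and 29.2 CPM against 1.97 and 2.12 CPM (log2 fold change 3.87).

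Among stress and signalling genes, hypoxia targets rose more often than they fell, 16 higher and 3 lower of 23 tested (median 0.45). VEGFA, the angiogenic growth factor, rose from 53.1 and 49.9 CPM to 209 and 230 CPM (log2 fold change 2.09), CA9, a carbonic anhydrase, from 0.216 and 0.319 CPM to 8.14 and 8.61 CPM (log2 fold change 4.98), and EPAS1, which encodes HIF-2α, from 98.0 and 92.1 CPM to 352 and 336 CPM (log2 fold change 1.85). Of 23 NRF2 targets and aldo-keto reductases 15 were called higher and 6 lower, with NQO1 at 417 and 403 CPM against 122 and 127 CPM (log2 fold change 1.72) and HMOX1, heme oxygenase, at 61.5 and 54.2 CPM against 17.6 and 18.5 CPM (log2 fold change 1.68). Of 37 genes of ATF4 and the unfolded protein response 16 were called higher (43.2%) and 12 lower (32.4%). The shares over all genes were 31.5% and 30.5%. DDIT3 rose (log2 fold change 1.26), and ATF4 itself stood at 273 and 270.0 CPM against 265 and 291 CPM and was not called (edgeR adjusted p = 0.63).

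Growth factor pathways were split, beside 31.5% of all genes called higher and 30.5% lower. DUSP5, a phosphatase induced by and acting on ERK, rose from 124 and 122 CPM to 647 and 696 CPM (log2 fold change 2.45), while EGFR stood at 283 and 302 CPM against 337 and 292 CPM and was not called (edgeR adjusted p = 0.149). The Wnt inhibitor DKK1 fell from 330.4 and 325 CPM to 82.6 and 70.2 CPM (log2 fold change -2.10), and 9 of 18 Wnt feedback and stem cell genes were called lower and 3 higher, or 5 higher without NC replicate 1. Of 26 TGF-beta and BMP targets 14 were called higher and 10 lower, with PMEPA1 up (log2 fold change 2.27) and SMAD6 down (log2 fold change -2.25). Of 24 YAP and TEAD targets 8 were called higher (5 without P1-a2 replicate 2) and 11 lower. CCN1, a matrix signalling protein, fell from 861 and 928 CPM to 280 and 303 CPM (log2 fold change -1.62). The integrin ITGA1 rose from 16.6 and 17.2 CPM to 70.2 and 86.7 CPM (log2 fold change 2.22), and the metalloprotease MMP14 fell from 4.03 and 4.64 CPM to 0.488 and 0.826 CPM (log2 fold change -2.69). Iron handling genes were called higher in 13 and lower in 5 of 23 tested, with 3 lower without P1-a2 replicate 2 or NC replicate 1. Retinoid genes were called higher in 6 and lower in 1 of 13, with 2 lower without either P1-a2 library or NC replicate 2.

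Within Panc10.05, P1-a2 was also tested against P2-a8, in which isoform and doxycycline dose change together and cannot be told apart. There 8090 genes (46.9%) were called, 3837 higher in P1-a2 (22.2%) and 4253 lower (24.7%). The comparison shares its P1-a2 libraries with the one above, by which the largest rises and falls were chosen. The choice thus favours differences in the same direction here. Of the 12 largest falls, all 12 were lower in P1-a2 than in P2-a8. IFI44L, at 0.359 and 0.435 CPM in P1-a2, stood at 11.3 and 11.5 CPM in P2-a8. Of the 12 largest rises, 10 were higher in P1-a2 and 2 lower, the latter being HNF4A and PDZK1 (9.45 and 11 CPM against 13.7 and 13.5 CPM). The PDZK1 call was lost without P1-a2 replicate 1 (edgeR adjusted p = 0.0624). APOA2 stood at 22 and 11.5 CPM in P2-a8. Of the interferon-stimulated genes 54 of 56 were lower in P1-a2 than in P2-a8 and 1 higher, and of the mitosis genes 68 of 73 were lower and none higher.

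The same isoform was induced in BxPC3, where 5652 of 17635 genes (32%) were called, 3016 higher (17.1%) and 2636 lower (14.9%). The drug dose, the control construct and the line differ between the experiments. Of the Panc10.05 rises with a log2 fold change of at least 1, 1364 were tested in BxPC3, and 505 (37%) were called higher and 122 (8.94%) lower there. Of the falls of that size 1348 were tested, and 489 (36.3%) were called lower and 88 (6.53%) higher. With replicate number as a block 7333 genes were called in BxPC3. Of these rises 566 (41.5%) were then called higher and 156 (11.4%) lower, and of these falls 609 (45.2%) lower and 112 (8.31%) higher. The difference between the 2 responses passed the test in 7048 of 19372 genes (36.4%), 3150 with the more positive response in Panc10.05 (16.3%) and 3898 with the more negative (20.1%). Brush border genes rose in both lines, with 22 of 27 tested called higher in BxPC3 and none lower. Interferon-stimulated genes fell in both, with 48 of 57 called lower in BxPC3 (median -0.67 over the 55 also tested in Panc10.05). The difference itself was called in 46 of 58 with the more negative response in Panc10.05 and in 1 the other way, or in 2 with replicate number as a block. Mitosis genes were called lower in 49 of 73 in BxPC3, or in 69 with the replicate block. The response was more negative in Panc10.05 in 60 and the reverse held in 1, or in 62 and 1 with the block. Cholesterol synthesis genes differed in direction: 18 of 25 were called higher and none lower in BxPC3, and the difference was called in 21 of 25, each more negative in Panc10.05. Ribosomal proteins were called higher in 4 and lower in 13 of 79 in BxPC3 (11 and 19 with the replicate block, in a line where same-numbered libraries deviated together), and 47 had the more positive response in Panc10.05 with none the other way.

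In ASPC1, HNF4A was lower with the sgDual guides, at 3.19 to 13.6 CPM against 206 and 220 CPM with sgNC (log2 fold change -4.75, edgeR adjusted p = 9.23e-06). Of 16992 genes tested 7290 (42.9%) were called, 3644 higher (21.4%) and 3646 lower (21.5%), and 4376 were called without sgNC replicate 1. Brush border genes were called lower in 17 of 26 tested and higher in none, and interferon-stimulated genes higher in 34 of 55 and lower in 4, in each case the opposite of the direction in Panc10.05. Mitosis genes were called lower in 67 of 73 and higher in none, the same direction as with induction in Panc10.05. Ribosome biogenesis genes were called lower in 59 of 66 and higher in none, or in 1 with the replicate block. Of the Panc10.05 rises with a log2 fold change of at least 1, 333 of 1298 tested in ASPC1 (25.7%) were called lower there and 255 (19.6%) higher. Of the falls of that size 448 of 1226 (36.5%) were called higher and 231 (18.8%) lower.

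**Figure D4:**
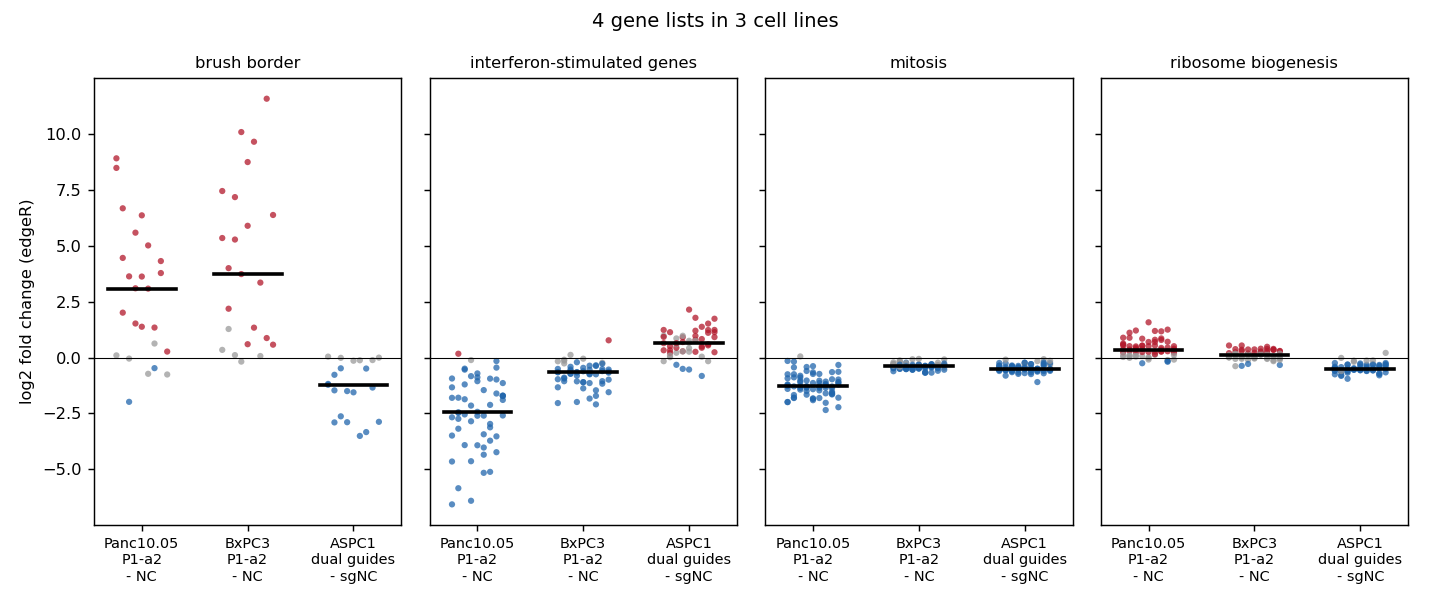
Log2 fold change of each member of 4 gene lists tested in Panc10.05 and in the line shown, in Panc10.05 (P1-a2 against NC), BxPC3 (P1-a2 against NC) and ASPC1 (dual guides against sgNC), coloured by call, with list medians as black bars. The median of the brush border genes lies above 0 with induction and below it with the guides, that of the interferon-stimulated genes the other way round, and that of the mitosis genes below 0 in all 3 lines, while single members depart from their list's median.

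The letters of the promoters printed above were counted over all RefSeq windows from 250 bases before to 50 after a transcript start, 35093 distinct windows of 27305 genes. Windows of 1 gene can overlap. CAAAGTCCA was in 0.385% of them, CAAAGTTCA in 0.296% and CAAAGGTCA in 0.407%, and any of the 3 in 1.09%. The share was 0.612% in windows of genes not called, 2.84% in those of genes called higher with a log2 fold change of at least 1, and 6.82% (24 of 352 windows) at a log2 fold change of at least 3. None of the 104 windows of genes called lower with a log2 fold change of -3 or less held one. The interferon-response motif was in 3.58% of all windows, 2.73% of those of genes not called, 3.98% at a rise of at least 3, and 21.2% (22 of 104) at a fall of that size. It was in 35 of 64 windows of the interferon-stimulated genes (54.7%). Of the 12 largest rises 10 had a window and 3 held an HNF4 motif, and of the 12 largest falls 9 had a window and 4 held the interferon-response motif. With the first listed window of each gene in place of every distinct window, which was the first count made, 2 of the 12 rises held an HNF4 motif, and the shares at a rise or fall of at least 3 were 7.23% and 21.5%.

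**Figure D5:**
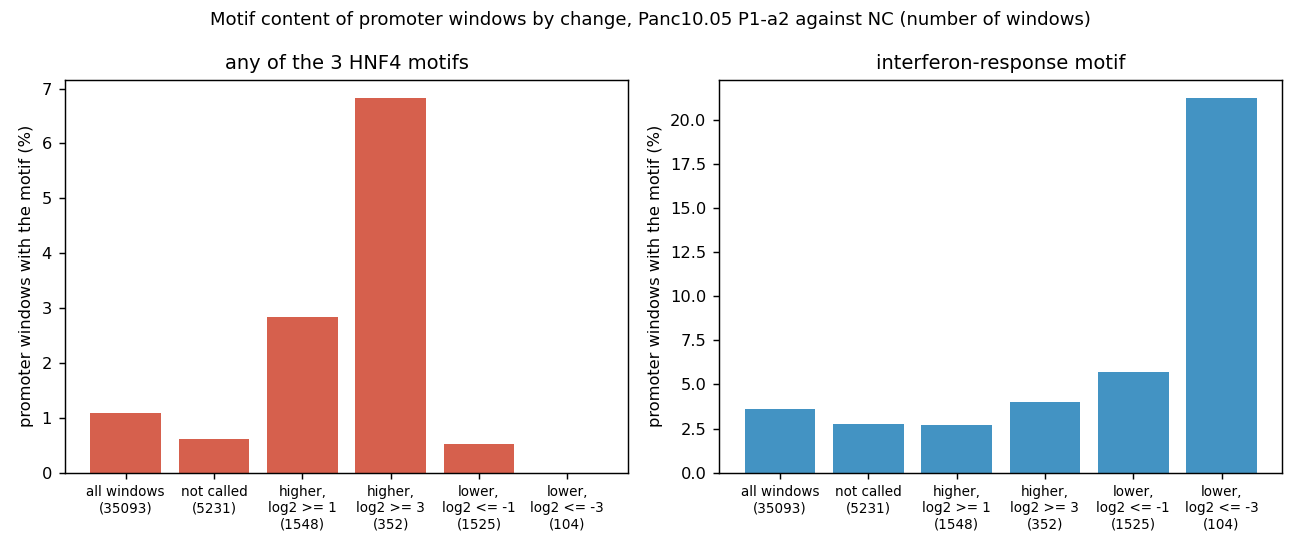
Share of promoter windows (%) that hold any of the 3 HNF4 motifs (left) or the interferon-response motif (right), by the change of the gene in P1-a2 against NC, with the number of windows in brackets. The HNF4 share is highest, at 6.82%, in genes that rose by a log2 fold change of at least 3, and the interferon-response share, at 21.2%, in genes that fell by as much.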

How the data were processed

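Gene counts per library were deposited by the authors as whole numbers without normalization. Per the submitters' processing notes, cutadapt 1.16, STAR 2.7.9a, featureCounts 1.6.3, DESeq2 1.36.0 and GRCh38 were used; the annotation and strand setting are not given in the sources used here. Per the labels' protocols, poly(A) RNA was made into directional libraries and sequenced in pairs on an Illumina NovaSeq.

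From these counts, edgeR 4.0.16 (R 4.3.3) kept genes by filterByExpr, scaled libraries by TMM and ran robust quasi-likelihood tests with 3 Panc10.05 groups in 1 fit. BxPC3 was fitted alike, the difference between the lines as an interaction over 12 libraries, and ASPC1 in 7 guide groups. SE is the absolute log2 fold change over the square root of F. The floor is 3 counts in each library of a group and covers counting error only. Symbols matched 99.88% of 62703 identifiers. On simulated counts for P1-a2 against NC (16378 genes) the test recovered 99 of 100 genes changed by a log2 fold change of 1. It recovered 100 of 100 changed by 2, and called 15 unchanged genes. The changed genes were few and were drawn from well-counted genes, and every gene had the same spread, unlike in the data. The simulation thus says nothing of genes near the floor.

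Named genes are HNF4A, HNF4A-AS1 and HNF4G, the 12 largest rises and falls (called, at least 5 CPM on average, groups not overlapping), and, per list, the first 4 members and the 4 largest called changes of at least 1 CPM. Not every gene so named is printed, and the results of some are not reported here. The members and lists were chosen with earlier results of these data known. Promoter windows are from RefSeq (GRCh38.p14), and every distinct window was used after 1 window per gene had been tried. Other list members printed were chosen after their values were seen and are marked so.

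Deviations of same-numbered libraries correlated between groups at -0.0607 to 0.0457 over 3 group pairs in Panc10.05, at 0.335 to 0.56 over 3 in BxPC3 and at 0.263 to 0.758 over 21 in ASPC1. The numbers thus did not pair the Panc10.05 libraries, and did pair those of BxPC3 and ASPC1 by the data, while the labels name no shared batch or day. Replicate libraries differed by more than sampling noise (chi-square per degree of freedom 5.50 in P1-a2 and 7.68 in NC), so that none was treated as a duplicate. Alternatives were other scalings, no filter, DESeq2 1.42.0, 2 groups only, a replicate block, a fold limit and leaving out each library.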

Additional observations from a re-analysis of the deposited data

Results flagged for a closer look

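The response to P1-a2 differed between Panc10.05 and BxPC3 in 7048 genes by the interaction test (edgeR adjusted p under 0.05). These are 36.4% of the 19372 genes tested for it. Of 350 named genes 283 were tested both in Panc10.05 and for this difference. Of these 197 differed, 27 of them called in both lines in opposite directions. Many named genes were chosen for a large called change in Panc10.05, which favours a difference, so that their share is no result about them. Differences are log2 values, Panc10.05 minus BxPC3. Line, doxycycline dose and control construct cannot be told apart in them. The largest rises and falls below were chosen by their Panc10.05 values, which also enter the difference. The choice itself thus favours a difference of the same sign.

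Among the 12 largest rises in Panc10.05 the difference was 7.52 in KIAA1614-AS1, 5.87 in CIDEB, 2.35 in HNF4A, 2.02 in SELENOP and 1.85 in PDZK1, and -3.59 in MOGAT3, which rose in both lines. Among 11 of the 12 largest falls it was -3.39 in IFI6, -3.67 in MX1, -4.38 in IGFBP6, -4.41 in IFITM1, -4.52 in IFI44L, -4.95 in FGFBP1, -5.19 in CGB5, -5.73 in MX2, -6.05 in SPOCK1, -7.45 in ZBTB32 and -7.98 in FAXDC2. For HNF4G it was 0.66. Leaving out 1 library ended the call for HNF4G (edgeR adjusted p 0.0781 to 0.151 without Panc10.05 P1-a2 replicate 2, Panc10.05 NC replicate 2, BxPC3 NC replicate 1 or BxPC3 P1-a2 replicate 2) and for PDZK1 (edgeR adjusted p 0.0595 to 0.0767 without Panc10.05 NC replicate 1 or either BxPC3 NC library). The difference in HNF4A was 3.74 without Panc10.05 NC replicate 1, 1.73 without Panc10.05 NC replicate 2 and 1.70 without BxPC3 NC replicate 1. That in MOGAT3 was -7.99 without BxPC3 NC replicate 1 and -2.40 without BxPC3 NC replicate 2, that in KIAA1614-AS1 8.57 without Panc10.05 NC replicate 1, and that in FAXDC2 -7.39 without BxPC3 P1-a2 replicate 2.

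Genes called higher in Panc10.05 and lower in BxPC3 included C3 (4.66), LGALS9 (4.16), CXCL1 (3.01), WNT10A (2.71), CTSE (2.60), CEACAM6 (2.26), GDF15 (1.73), TNS4 (1.72), STEAP3 (1.33), ELF3 (1.28), RPS27 (1.12), GATA6 (1.10), RPS6 (0.61) and RPL3 (0.54). Genes called lower in Panc10.05 and higher in BxPC3 included MDM2 (-0.59), PLAU (-0.76), CDH1 (-0.93), MVK (-1.18), INSIG1 (-1.52), PC (-1.69), TM7SF2 (-2.35), VIM (-2.89), KRT16 (-3.92), PRSS3 (-4.55) and SERPINA1 (-5.98). FAXDC2 belongs with the latter as well. Without Panc10.05 P1-a2 replicate 2 CXCL1 lost its call in Panc10.05 (edgeR adjusted p = 0.159) and the difference was 2.41, and without Panc10.05 NC replicate 1 the difference in CEACAM6 was 3.47.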

How the results depend on the processing

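With a log2 fold change of at least 1 required, the counts of called genes fell to 3385 for P1-a2 against NC, 1455 for P1-a2 against P2-a8, 1242 in BxPC3, 2468 for the difference between lines and 1694 in ASPC1, a stricter rule by construction. Leaving out 1 library gave 9640 to 10770, 6435 to 8377, 3899 to 5759, 5974 to 7129 and 4376 to 6615 genes in the same order, the lowest ASPC1 count without sgNC replicate 1. A lone library left in a group is assumed to vary like the other groups. DESeq2 called 9546 genes for P1-a2 against NC, and the other scalings 10691 to 10733. In BxPC3 the split was 3016 higher to 2636 lower, and 2745 to 2942 by total counts alone. The replicate block gave 10562, 7857, 7333, 7763 and 8786 genes in the same order. Same-numbered libraries deviated together in BxPC3 and ASPC1, where the block raised the counts from 5652 and 7290, and not in Panc10.05. With 1 library left out, 2 named values that had passed the threshold changed sign. The first, for MTTP, difference in P1-a2 response between Panc10.05 and BxPC3, ranged from -8.17 to 0.48, the latter without Panc10.05 NC replicate 2. The second, for IL24, difference in P1-a2 response between Panc10.05 and BxPC3, ranged from -1.88, without BxPC3 NC replicate 2, to 4.10. The cause was not tested. Over all alternatives, the calls for single named genes were kept in 9991 cases and lost in 622, and 8 were gained.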
